A study of Mus musculus with 37 samples.

Results

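Aldoa, which encodes aldolase A, was followed together with its brain paralog Aldoc and 8 genes for other steps of glycolysis in mice with 1, 2 or 3 copies of the chromosome 7 segment that holds Aldoa. The 10 genes are Hk1, Gpi1, Pfkm, Pfkl, Pfkp, Aldoa, Aldoc, Tpi1, Pgam1 and Pkm. A gene was represented by the probe set that lists its symbol alone, and by the brightest such probe set where there were several. By this rule 9 of the 10 members were measured, among 19938 genes with a probe set of their own. Gpi1, which encodes glucose-6-phosphate isomerase, had none and is not analysed here.

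The samples were total RNA from the cortex, brain stem, cerebellum and olfactory bulb of male F1 hybrids of C57BL/6N and 129Sv. The deletion (df/+, 1 copy, 2 mice) and the duplication (dp/+, 3 copies, 3 mice) each affect 1 of the chromosome pair, in the segment equivalent to human 16p11.2, and 3 wild-type mice (+/+) have 2 copies. Both rearrangements are germline alleles present in every cell, so no promoter restricts them to a cell type, and the labels used here give no age. The labels describe 31 region samples on 37 arrays, with 6 samples hybridised to 2 arrays and no cortex sample from dp/+ mouse 3. Their titles number replicates within each region and copy number. The same number was taken as the same mouse in all regions, giving these 8 mice, a link that the titles do not state. The mouse is the replicate, so the number of mice limits the precision, and second arrays of a sample add no replicate.

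Glycolysis splits glucose into pyruvate in the cytosol and yields ATP and NADH. Hexokinase traps glucose, phosphofructokinase commits it to the pathway, aldolase cuts fructose-1,6-bisphosphate into a pair of triose phosphates, and triose phosphate isomerase, phosphoglycerate mutase and pyruvate kinase act on the trioses and their products. Brain tissue depends heavily on glucose. Aldolase A is the broadly expressed and muscle isozyme, and aldolase C is the isozyme typical of brain, known in the cerebellum as zebrin II, the antigen of Purkinje cell stripes.

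Because the aldolase paralogs are the pair whose responses are set side by side, 1 RefSeq promoter window of each is shown (GRCm38.p6, 250 bases before to 50 after a transcript start, 5′ to 3′ on the gene's strand). The Aldoa window is chr7:126799205-126799504 on the minus strand, and the Aldoc window is chr11:78322823-78323122 on the plus strand. Capitals mark ACGTG or its reverse complement CACGT, a sequence that occurs in some hypoxia response elements and in some E-boxes.
Aldoa: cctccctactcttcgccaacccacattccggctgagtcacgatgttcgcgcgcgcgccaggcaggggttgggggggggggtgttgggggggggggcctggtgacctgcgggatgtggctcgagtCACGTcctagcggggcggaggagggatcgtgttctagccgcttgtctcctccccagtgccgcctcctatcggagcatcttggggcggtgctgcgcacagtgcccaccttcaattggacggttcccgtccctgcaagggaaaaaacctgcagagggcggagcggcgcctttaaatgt
Aldoc: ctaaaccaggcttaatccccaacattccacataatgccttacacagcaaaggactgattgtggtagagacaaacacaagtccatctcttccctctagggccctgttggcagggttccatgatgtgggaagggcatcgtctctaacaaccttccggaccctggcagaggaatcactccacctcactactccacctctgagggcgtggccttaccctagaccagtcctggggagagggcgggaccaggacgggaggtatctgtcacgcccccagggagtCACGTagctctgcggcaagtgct
Both windows contain 1 such match, whereas another window of each gene, chr7:126800398-126800697 for Aldoa and chr11:78323948-78324247 for Aldoc, contains 0. A match was in 8 of the 18 windows listed for the 10 members, or 44.4%, and in 6447 of 32851 windows of this length, or 19.6%. Windows of a gene can overlap. The Aldoa match shown also lies in the overlapping Aldoa window chr7:126799129-126799428, so it was counted for both. At least 1 window of Aldoa, Aldoc, Hk1, Pfkm, Pgam1 and Pkm contained it, 6 of the 10 members. Gpi1, Pfkl, Pfkp and Tpi1, without it, had only 1 window each, as did Pgam1. A gene with more windows has more chances of a match, and the share of all genes by this count was not computed. Of the other motifs searched on both strands, GGGCGG was in 9 of the 18 windows (50%, against 35.7% of all), CCAAT in 4 (22.2% against 37.4%) and TATAAA in 0 (against 13.6%). A match describes these letters and is not evidence that a factor binds there.

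Array medians lay between 7.30 and 7.49 on the log2 scale, and region markers were highest in their own region for 8 of 8 bulb, 5 of 7 cortex, 8 of 8 cerebellum and 7 of 7 brain stem genes. None of the markers of astrocytes, neurons, oligodendrocytes, microglia, endothelium, red blood cells or muscle passed the threshold for dosage, in df/+ or in dp/+ across the brain. On dp/+ arrays dim genes read higher and brighter ones lower. The median dp/+ minus +/+ difference was 0.10 in the third decile of level and −0.08 in the seventh. Of the 9 members, 8 lie in the top decile, where that median was −0.03, and Pfkl lies in the ninth, where it was −0.06.

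Aldoa expression followed the number of copies in every region. In the brain stem the log2 levels were 12.82 and 12.72 in df/+, 13.09, 13.22 and 13.24 in +/+, and 13.35, 13.30 and 13.41 in dp/+. In the cerebellum they were 12.44 and 12.65 in df/+, 13.00, 12.78 and 12.89 in +/+, and 13.29, 13.21 and 13.29 in dp/+. The cortex gave 12.68 and 12.61 in df/+, 13.03, 13.05 and 13.01 in +/+, and 13.29 and 13.30 in the 2 dp/+ mice profiled. In all 3 of these regions every df/+ sample was below every +/+ sample, and every dp/+ sample was above. The olfactory bulb showed the same order, with 12.90 and 12.78 in df/+, 13.26, 13.11 and 13.34 in +/+, and 13.40, 13.39 and 13.46 in dp/+. The closest approach between genotypes was in the bulb, where the highest +/+ sample and the lowest dp/+ sample differed by less than the spread of the +/+ mice.

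**Figure D1:**
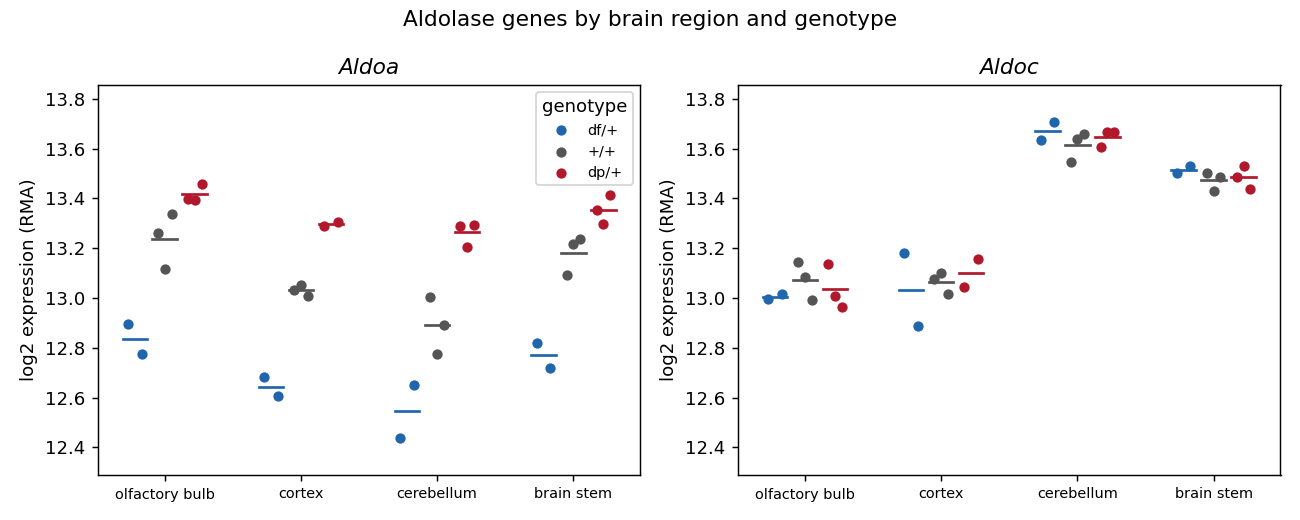
Log2 expression of Aldoa (left) and Aldoc (right) in 4 brain regions, 1 point per mouse and region, coloured by genotype, with a line at each group mean (2 df/+, 3 +/+ and 3 dp/+ mice, 2 dp/+ in cortex). The Aldoa points are ordered df/+, +/+, dp/+ without overlap in each region. The Aldoc points of the genotypes overlap, except that the df/+ points of the brain stem lie just above the +/+ points. Aldoc sits highest in the cerebellum, near 13.6.

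For a comparison over mice, the +/+ mean of each region was subtracted and the 4 regions of a mouse were averaged, or its 3 regions for dp/+ mouse 3. These differences in Aldoa were −0.38 and −0.40 in the df/+ mice, 0.01, −0.05 and 0.03 in the +/+ mice, and 0.25, 0.22 and 0.28 in the dp/+ mice. The slope on log2 copies, where 1 would be proportional to copy number, was 0.40 ± 0.04 (SE, n = 8 mice; 95% interval 0.32 to 0.48; limma, Benjamini-Hochberg adjusted p = 0.000121). Aldoa was the only member past the threshold of 0.05, 1 of 9, where 0.11% of all genes were called. Of the 22 genes called, all with rising expression, 21 lie on chromosome 7 like Aldoa. The slope of Aldoa ranked 20 among the 22, against a median of 0.62. Aldoa read at the 99.9 percentile of level of all genes, and the part of level in this rank was not tested.

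With 1 copy, Aldoa fell by 0.39 on the log2 scale, to 76.5% of the +/+ level (SE 0.06, 95% interval −0.51 to −0.26; limma, adjusted p = 0.0163). It was the only member called in df/+ mice, where 0.115% of genes were. With 3 copies, Aldoa rose by 0.25, to 119% of the +/+ level (SE 0.05, 95% interval 0.14 to 0.36; limma, adjusted p = 0.0341), again alone among the members, where 1.86% of genes were called. Levels proportional to copies would be 50% and 150%. The step from 1 to 2 copies and that from 2 to 3 did not differ detectably per log2 copy (limma, difference −0.04, 95% interval −0.30 to 0.22, adjusted p = 0.879). In whole tissue, fewer cells of a type and less RNA per cell cannot be told apart, and how closely array fold changes track transcript number was not tested.

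Each single-step contrast rested on few mice. The df/+ call was lost when either df/+ mouse was left out (adjusted p = 0.12 and 0.283), and without +/+ mouse 1 or 3 (0.0734 and 0.0806), with the difference between −0.41 and −0.37 whichever mouse was left out. The dp/+ call was lost without +/+ mouse 2 or 3, without any 1 dp/+ mouse, without either df/+ mouse, with brighter genes only (0.0738), and on arrays centred on their medians (0.0647) or scaled by cyclic loess (0.065). The dosage slope, which uses all 8 mice, stayed past the threshold without each mouse in turn, between 0.39 and 0.41 (adjusted p at most 0.00374).

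Aldoc did not follow the copy number of its paralog. Its brain-wide differences were 0.02 and −0.02 in df/+, 0.01, 0.01 and −0.02 in +/+, and 0.01, 0.03 and −0.03 in dp/+, so the genotypes overlapped entirely. The slope was 0.003 ± 0.04 (SE, n = 8 mice; 95% interval −0.07 to 0.08; limma, adjusted p = 0.983). The df/+ difference had a 95% interval of −0.12 to 0.12 and the dp/+ difference one of −0.10 to 0.11, which bound any change in Aldoc at this number of mice. Within regions the Aldoc slopes ran from −0.02 to 0.04.

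The difference Aldoa minus Aldoc within a mouse is free of any shift that moves a whole array. It was −0.40 and −0.38 in df/+, 0.002, −0.05 and 0.05 in +/+, and 0.24, 0.18 and 0.31 in dp/+, relative to the +/+ mean. Its slope on log2 copies was 0.40 (exact two-sided permutation test over 560 assignments, p = 0.00179, the smallest this design can give). Without each mouse in turn the slope lay between 0.38 and 0.41. Aldoc is known as a gene of astrocytes. The log2 difference averaged over 10 astrocyte markers, all measured, ranged over mice from −0.004 to 0.02 in df/+, −0.01 to 0.01 in +/+ and 0.0001 to 0.03 in dp/+.

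**Figure D2:**
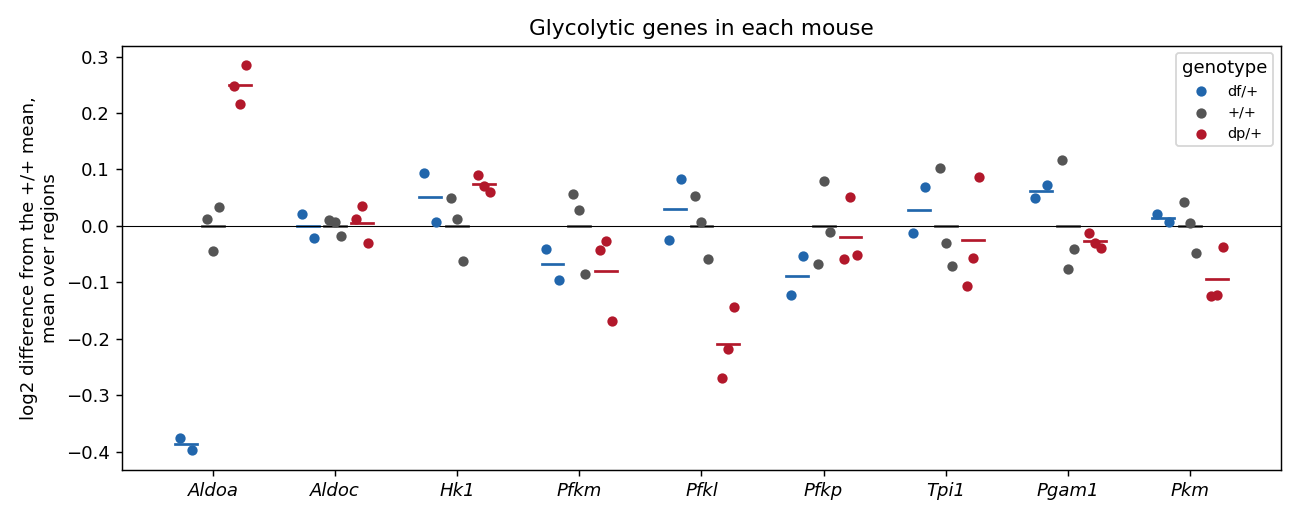
Log2 difference from the +/+ mean, averaged over the regions of each mouse, for the 9 measured members. Each point is a mouse and each line a genotype mean (2 df/+, 3 +/+, 3 dp/+). The genotypes separate for Aldoa on both sides. The dp/+ mice lie below the +/+ mice for Pfkl and just above them for Hk1, where the df/+ mice overlap both.

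Hk1 encodes the main hexokinase of brain, the first enzyme of the pathway. Its brain-wide differences were 0.09 and 0.01 in df/+, 0.05, 0.01 and −0.06 in +/+, and 0.09, 0.07 and 0.06 in dp/+. All 3 dp/+ mice were above all 3 +/+ mice, but the df/+ values overlapped both, and the dosage slope was 0.01 ± 0.04 (SE, n = 8; limma, adjusted p = 0.942). The dp/+ difference of 0.07 had a 95% interval of −0.04 to 0.19.

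The identity of this Hk1 signal is uncertain. The brighter of the 2 Hk1 probe sets rests on 1 transcript record, which is also listed by 16 probe sets that name both Hk1 and the ribosomal protein gene Rpl17. Over 31 region samples, which share arrays and tissue, its Pearson r with those 16 probe sets was 0.69 to 0.85 (median 0.83). Its r with the other Hk1 probe set was −0.02. That other set, supported by 8 transcript records, had a median r of 0.01 with the same 16 probe sets. By it, the slope of Hk1 was −0.02 (95% interval −0.11 to 0.07) and the dp/+ difference −0.07 (−0.19 to 0.05), so the brighter set and this one differ in sign. Between 2 arrays of 1 sample, the brighter set had an SD of 0.15, larger than its SD of 0.10 between mice of 1 group, whereas for Aldoa these were 0.04 and 0.08.

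None of the 3 phosphofructokinase genes, for the muscle (Pfkm), liver (Pfkl) and platelet (Pfkp) subunits of the committing enzyme, passed the brain-wide slope, df/+ or dp/+ test. Pfkl was lowest in mice with 3 copies. Its brain-wide differences were −0.02 and 0.08 in df/+, 0.05, 0.01 and −0.06 in +/+, and −0.27, −0.22 and −0.14 in dp/+. All 3 dp/+ mice lay below all 5 others. The dp/+ difference was −0.21 ± 0.06 (SE; 95% interval −0.33 to −0.08), with an adjusted p of 0.0758 by limma that misses the threshold. The dosage slope was −0.15 (95% interval −0.25 to −0.04; adjusted p = 0.697). Array weights took both past the threshold (adjusted p = 0.0297 and 0.0432), a setting that called 1616 genes for dosage instead of 22, and all region samples fitted with the mouse as a random block did so for the dp/+ difference (0.0348).

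In the cerebellum the Pfkl difference passed the test. The levels were 9.68 and 9.80 in df/+, 9.89, 9.61 and 9.66 in +/+, and 9.34, 9.29 and 9.47 in dp/+. No dp/+ sample reached a +/+ sample. The fall was by 0.35 on the log2 scale, to 78.4% of +/+ (SE 0.09; limma, adjusted p = 0.0261), in a comparison that called 5.54% of all genes and in which the ninth decile of level had a median of −0.12. Pfkl and Aldoa were the 2 members called there. The Pfkl call was lost under cyclic loess (difference −0.26, adjusted p = 0.0964), without any 1 +/+ mouse (0.0574 to 0.0938) and without dp/+ mouse 1 or 2 (0.148 and 0.0747). The other regions gave −0.28 (bulb), −0.13 (brain stem) and −0.03 (cortex), none past the threshold, and the dp/+ differences were not shown to differ between regions (limma F test, adjusted p = 0.363).

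Pfkm differences ran from −0.10 to −0.04 in df/+, from −0.08 to 0.06 in +/+ and from −0.17 to −0.03 in dp/+. Those of Pfkp ran from −0.12 to −0.05 in df/+, from −0.07 to 0.08 in +/+ and from −0.06 to 0.05 in dp/+. The genotypes overlapped for both. Their dosage slopes were −0.005 (95% interval −0.10 to 0.09) for Pfkm and 0.04 (−0.05 to 0.14) for Pfkp.

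Tpi1 encodes the isomerase that interconverts the triose phosphates made by aldolase. Its differences were −0.01 and 0.07 in df/+, 0.10, −0.03 and −0.07 in +/+, and −0.11, −0.06 and 0.09 in dp/+. No genotype stood apart, and the slope was −0.03 (95% interval −0.14 to 0.07).

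Pgam1, the brain-type phosphoglycerate mutase, gave 0.05 and 0.07 in df/+, 0.12, −0.08 and −0.04 in +/+, and −0.01, −0.03 and −0.04 in dp/+. The dp/+ mice fell inside the +/+ range. The slope was −0.06 (95% interval −0.15 to 0.03). Pgam1 has 3 probe sets, of which 2 read identically on all 37 arrays and correlated with the one used at r = 0.96 over 31 samples.

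By region, Pgam1 in dp/+ differed most in the bulb. There the levels were 12.16 and 12.25 in df/+, 12.57, 12.17 and 12.21 in +/+, and 12.02, 12.04 and 12.03 in dp/+, so every dp/+ sample was lowest. The bulb difference was −0.28, against 0.17 for cortex, 0.11 for cerebellum and −0.04 for brain stem, none past the threshold. A limma F test of the dp/+ difference between regions gave an adjusted p of 0.153. No member passed that test, which called 0.211% of genes, nor the same test of the df/+ difference, which called 0.0602%. The other Pgam1 probe sets, which read identically, had means of 11.89 in dp/+ and 12.12 in +/+ in the bulb, and 11.93 and 11.82 in the cortex. Their means were 11.72 and 11.73 in the cerebellum, and 12.10 and 12.17 in the brain stem.

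Pkm encodes pyruvate kinase M, the last enzyme of the pathway. It gave 0.02 and 0.01 in df/+, 0.04, 0.01 and −0.05 in +/+, and −0.12, −0.12 and −0.04 in dp/+. A pair of dp/+ mice lay below all others, and the third lay within the +/+ range. The slope was −0.07 (95% interval −0.15 to 0.02) and the dp/+ difference −0.09 (limma, adjusted p = 0.28). The second Pkm probe set, with r = 0.85 to the first, gave a slope of −0.0004 and a dp/+ difference of 0.02.

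Without Aldoa, the slopes of the 8 remaining members ran from −0.15 to 0.04 with a median of −0.02, where the median of all genes was 0.01. Their df/+ differences ran from −0.09 to 0.06 and their dp/+ differences from −0.21 to 0.07.

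Within single regions Aldoa passed the test in all 4 in the joint fit. With each region fitted alone the bulb missed the threshold (limma, adjusted p = 0.0831), which left 3. Its slope was 0.37 in the olfactory bulb (SE 0.06; limma, adjusted p = 0.000246), where 0.246% of genes were called. It was 0.41 in the cortex (SE 0.06; adjusted p = 0.000154), with 0.0953% of genes called. The cerebellum gave 0.45 (SE 0.06; adjusted p = 1.03e-05), with 0.115% called, and the brain stem 0.37 (SE 0.06; adjusted p = 0.000275), with 0.12% called. No other member was called in any region, which makes 4 calls among 36 tests. The slopes of Aldoa were not shown to differ between regions (limma F test, adjusted p = 1.00), nor were those of any member, in a test that called 0.0502% of genes.

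**Figure D3:**
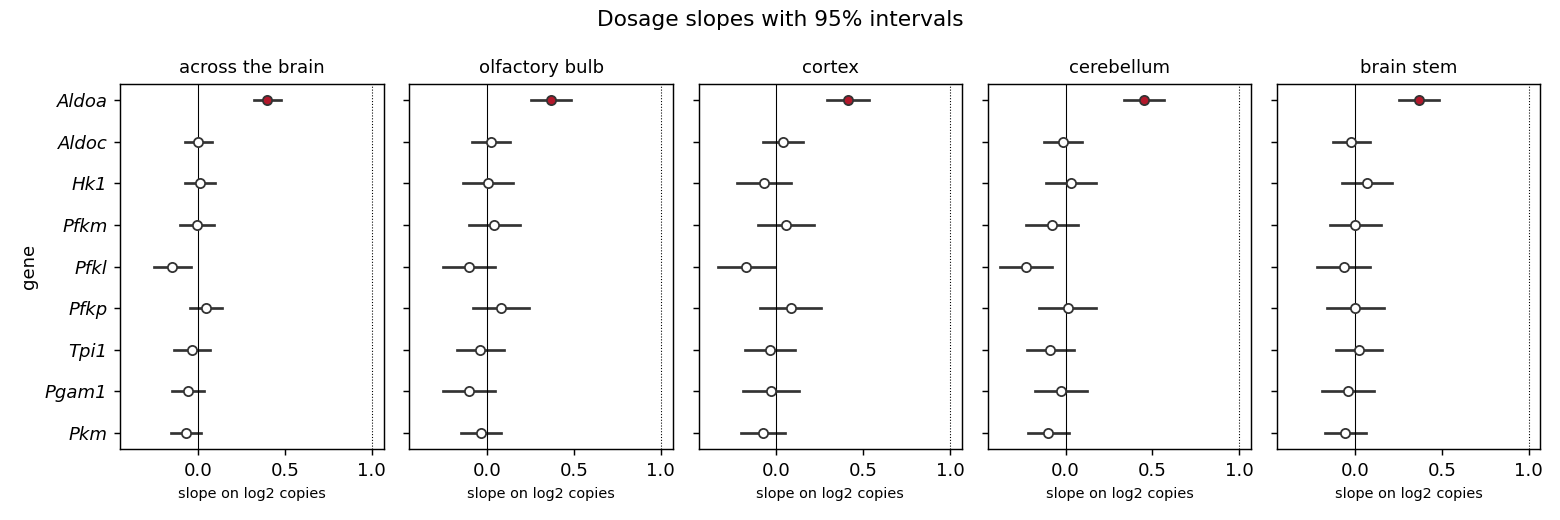
Slope on log2 copies with its 95% interval for the 9 measured members, across the brain (8 mice) and within each region (31 region samples). Filled points passed an adjusted p of 0.05, the solid line is 0 and the dotted line at 1 is proportionality to copy number. Aldoa lies between 0.37 and 0.45 in every panel, and no other member is filled.

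By single contrast, 1 copy of Aldoa gave 75.7% of the +/+ level in the bulb (limma, adjusted p = 0.0379; 0.291% of genes called) and 75.1% in the brain stem (adjusted p = 0.0341; 0.211% called). The cortex gave 76.5% (adjusted p = 0.111; 0.1% called) and the cerebellum 78.6% (adjusted p = 0.198; 0.0702% called). With 3 copies the cerebellum gave 129% of +/+ (limma, adjusted p = 0.017; 5.54% called). The bulb gave 113% (2.27% of genes called), the brain stem 113% (0.015% called) and the cortex 121% (0% called), none past the threshold. Neither the df/+ nor the dp/+ difference of Aldoa was shown to differ between regions (limma F tests, adjusted p = 0.999 and 0.537).

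The mouse genome carries a pair of intronless copies of Aldoa, Aldoart1 on chromosome 4 and Aldoart2 on chromosome 12, known for expression in the testis. On these arrays both read at moderate to low level, at the 41.3 and 30.9 percentile of all genes. Their probe sets list no transcript record in common with that of Aldoa. Whether Aldoa RNA hybridises to them was not tested, since no probe sequences were used here.

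Aldoart1 gave −0.12 and −0.22 in df/+, 0.09, −0.20 and 0.11 in +/+, and 0.41, 0.47 and 0.22 in dp/+. All dp/+ mice were above all others, and the df/+ mice overlapped with +/+. Its slope of 0.33 ± 0.07 (SE, n = 8) had an unadjusted p of 0.00059 and an adjusted p of 0.31 by limma. With a trended robust prior the adjusted p was 0.00108, with array weights 0.0023, over all region samples 0.025 and without +/+ mouse 2 it was 0.0126. It was 0.471 on arrays centred on their medians, 0.507 after cyclic loess and up to 0.992 over the 17 alternatives on log2 copies. Aldoart2 had a slope of 0.14 ± 0.05 (adjusted p = 0.697). The median slope of genes at the level of Aldoart1, the fifth decile, was 0.01, and at that of Aldoart2, the fourth, it was 0.04.

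**Figure D4:**
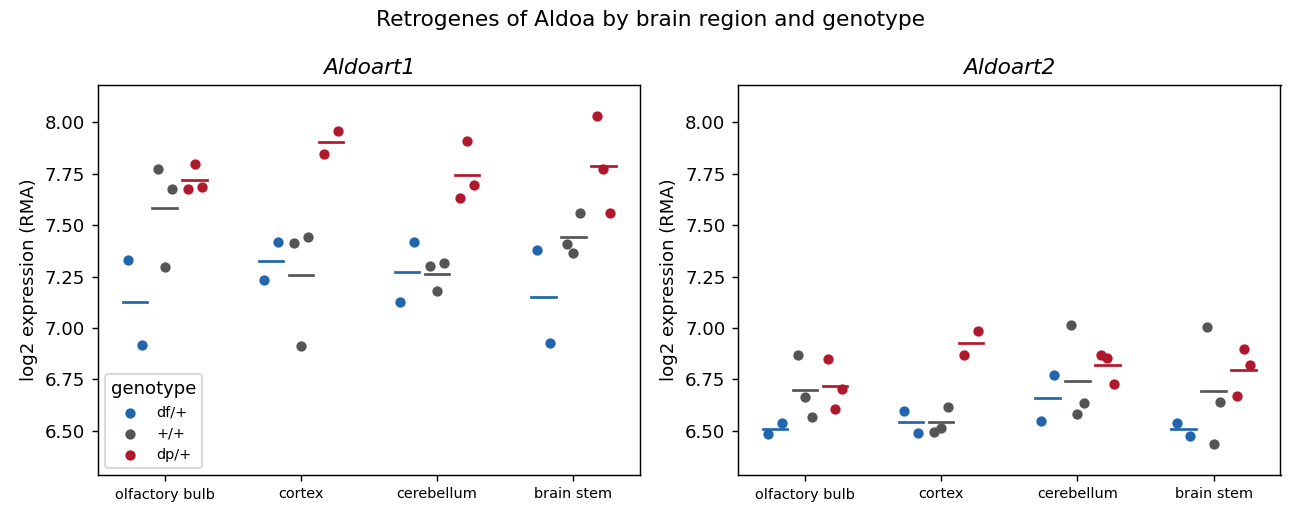
Log2 expression of Aldoart1 (left) and Aldoart2 (right), intronless copies of Aldoa, by region and genotype, 1 point per mouse and region with a line at each group mean. Aldoart1 in dp/+ mice lies between 7.56 and 8.03, above every +/+ sample of the same region except in the bulb, and the genotypes overlap more for Aldoart2.

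Of 64 other genes of glucose metabolism on a fixed list, 56 were measured. None passed the dosage test across the brain or within a region, and none the brain-wide df/+ or dp/+ contrast (limma). At an unadjusted p under 0.05, 6 passed in df/+, where 6.75% of all genes did, and 15 in dp/+, where 23.7% did. For the slope at an unadjusted p under 0.05, 5 had a higher and 1 a lower slope among the 56, where 6.87% of all genes passed, and their median slope was 0.003 against 0.01 for all genes. The 17 measured glycolytic enzymes outside the 10 members had a median slope of 0.01, the 11 regulators of glycolysis −0.05, the 10 glucose and lactate transporters 0.01 and the 16 genes of branches and reversal −0.003. By the size of p the first 3 genes were Aldoart1, Aldoart2 and Gckr, the glucokinase regulator, with a slope of 0.11 ± 0.05 (limma, adjusted p = 0.707).

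Single regions gave 5 calls on this list, all in dp/+ mice. Gpd1, the cytosolic glycerol-3-phosphate dehydrogenase that draws on the triose product of aldolase, fell by 0.43 in the bulb (limma, adjusted p = 0.027; 2.27% of genes called) and by 0.41 in the cerebellum (adjusted p = 0.0257). Also in the cerebellum, Pdk4, a kinase that inhibits pyruvate dehydrogenase, fell by 0.66 (adjusted p = 0.049). Gapdhs, the sperm-type glyceraldehyde-3-phosphate dehydrogenase, rose by 0.37 (adjusted p = 0.0495) and Aldoart1 by 0.48 (adjusted p = 0.0484). These 4 of 56 stand against 5.54% of all genes called in the dp/+ cerebellum. There the median difference was 0.16 in the third decile of level and −0.16 in the seventh. In the fifth, that of Aldoart1, it was −0.04. The part of this shift in the 4 calls was not tested, and the calls of this list within regions were not followed through the alternatives.

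Among +/+ mice, the members had regional patterns of their own. Of the 9, 8 differed between regions by a limma F test with the mouse as a block, where 58% of all genes did. Hk1 by its brighter probe set did not (adjusted p = 0.295). Fewer members were called when a +/+ mouse was left out: 7 without mouse 1, 5 without mouse 2 and 4 without mouse 3.

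Aldoc had the clearest division. Its +/+ means were 13.61 ± 0.06 (SD, n = 3) in the cerebellum, 13.47 ± 0.04 in the brain stem, 13.07 ± 0.08 in the bulb and 13.06 ± 0.04 in the cortex. All cerebellum values lay above all brain stem values, a difference that missed the threshold (limma, adjusted p = 0.202). Bulb and cortex overlapped (0.945), while the brain stem exceeded the bulb by 0.40 (0.00113). The 7 measured Purkinje cell and Bergmann glia markers averaged 11.57 in the cerebellum and 8.22 to 9.25 elsewhere, and the 10 astrocyte markers averaged 11.52 in the brain stem and 11.02 to 11.22 elsewhere. Their part in the Aldoc levels was not tested.

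Aldoa ran the other way between bulb and cerebellum. Its +/+ means were 13.24 ± 0.11 (SD, n = 3) in the bulb, 13.18 ± 0.08 in the brain stem, 13.03 ± 0.02 in the cortex and 12.89 ± 0.11 in the cerebellum. Bulb and brain stem overlapped (limma, adjusted p = 0.701). All brain stem values lay above all cortex values and these above all cerebellum values. The lowest cortex value, 13.006, nearly met the highest cerebellum value, 13.005. Neither of these steps between regions passed the threshold (limma, adjusted p = 0.24 and 0.242). Bulb and brain stem both exceeded the cerebellum, by 0.35 and 0.29 (limma, adjusted p = 0.00521 and 0.0162). The regional call of Aldoa was lost after cyclic loess (adjusted p = 0.49) and without +/+ mouse 2 or 3 (0.0941 and 0.168).

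**Figure D5:**
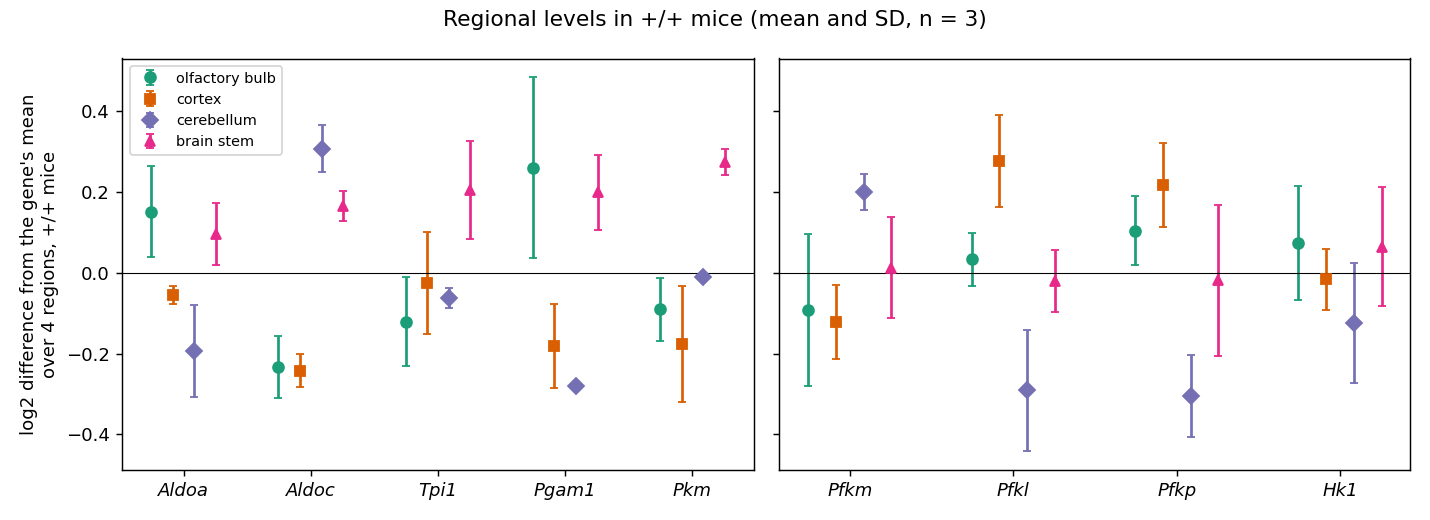
Regional log2 level in +/+ mice minus the mean of that gene over the 4 regions, as mean and SD of 3 mice. The means of Aldoc and Pfkm are highest in the cerebellum, where those of Pfkl and Pfkp are lowest, and those of Tpi1 and Pkm are highest in the brain stem.

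The phosphofructokinase genes had their highest means in different regions. The Pfkl mean was highest in the cortex at 10.29 ± 0.11 (SD, n = 3) and lowest in the cerebellum at 9.72 ± 0.15. Pfkp likewise had 11.41 ± 0.10 in the cortex and 10.88 ± 0.10 in the cerebellum. Cortex exceeded cerebellum by 0.57 for Pfkl and by 0.52 for Pfkp (limma, adjusted p = 0.000117 and 0.000386). Pfkm had its highest mean in the cerebellum, at 11.77 ± 0.04 against 11.45 ± 0.09 in the cortex. The cortex was lower by 0.32 on the log2 scale (cortex minus cerebellum −0.32, limma, adjusted p = 0.0137). The Pfkm regional test (adjusted p = 0.03) missed the threshold on arrays centred on their medians (0.132), without a block for the mouse (0.0508) and without +/+ mouse 2 or 3 (0.108 and 0.31).

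With means in between, Pfkl read 10.04 ± 0.07 in the bulb and 9.99 ± 0.08 in the brain stem, with overlapping values (adjusted p = 0.722). Pfkp read 11.29 ± 0.09 in the bulb and 11.17 ± 0.19 in the brain stem (adjusted p = 0.377). For Pfkm the brain stem at 11.58 ± 0.13 and the bulb at 11.48 ± 0.19 overlapped (adjusted p = 0.459). Cortex and bulb did not differ past the threshold for Pfkl or Pfkp (limma, adjusted p = 0.051 and 0.389). Nor did cortex and brain stem for Pfkp (0.0834), or cerebellum and brain stem for Pfkm (0.144). Cortex against brain stem passed for Pfkl (0.0249), and cerebellum against bulb for Pfkm (0.0228).

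The 3 members below aldolase were highest in the brain stem or bulb. Pgam1 had 12.32 ± 0.22 in the bulb and 12.26 ± 0.09 in the brain stem, both above 11.88 ± 0.10 in the cortex and 11.78 ± 0.002 in the cerebellum. Bulb exceeded cerebellum by 0.54 (limma, adjusted p = 0.000134). Pkm had 12.67 ± 0.03 in the brain stem, 12.39 ± 0.002 in the cerebellum, 12.31 ± 0.08 in the bulb and 12.22 ± 0.14 in the cortex, and the brain stem exceeded all 3 others (adjusted p = 0.0009 to 0.0153). Tpi1 showed 12.36 ± 0.12 in the brain stem against 12.03 to 12.13 in the other regions, among which no pair passed the threshold (adjusted p = 0.377 to 0.741). The Tpi1 regional call was lost without any 1 +/+ mouse (0.0543 to 0.0903), and that of Pkm without mouse 3 (0.0553).

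Pair by pair, 6 members differed between bulb and cerebellum, where 37.6% of genes did, and 6 between cerebellum and brain stem, where 36.8% did. Cortex and brain stem differed for 5 (27.3% of genes), cortex and cerebellum for 4 (37.2%), bulb and brain stem for 3 (32.6%) and bulb and cortex for Pgam1 alone (35.7%). The regional pattern of Hk1 depended on the probe set. The brighter one read 11.86 to 12.06, and the other read 11.02 ± 0.04 in the cortex, 10.88 ± 0.09 in the cerebellum, 10.79 ± 0.12 in the brain stem and 10.56 ± 0.12 in the bulb (limma F test over all probe sets, adjusted p = 0.000911).

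The genes whose levels over all 31 region samples were most like those of Aldoa were Cdipt (Pearson r = 0.88), Taok2 (0.86), Gdpd3 (0.86), Tmem219 (0.86) and Ppp4c (0.84). All 5 were called for dosage across the brain and lie on chromosome 7. Those most like Aldoc were Septin4 (0.97), H2-Bl (0.96), Ebf1 (0.96), Esrrb (0.96) and Ifitm10 (0.96). Septin4 is also on the Purkinje cell and Bergmann glia list. These correlations describe samples that share mice, arrays and regional composition.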

How the data were processed

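Total RNA was labelled and hybridised to Affymetrix whole-transcript arrays, per the labels' protocols. RMA in Affymetrix Expression Console was used, per the submitters' processing notes, which name no version. The authors' deposited values are log2 RMA levels of 35556 probe sets, and base 2 was read from their range. Of these probe sets 21789 list 1 gene symbol, 1621 several and 12146 none.

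The brightest probe set stood for a gene, and 2 arrays of 1 sample were averaged. limma 3.58.1 in R 4.3.3 fitted 1 value per mouse across the brain, and all 31 region samples within regions with the mouse as a random block (consensus correlation 0.15). P values were adjusted over 19938 genes. An exact permutation test served Aldoa minus Aldoc. The F tests of df/+ and dp/+ differences between regions were added after the data were seen. The fits were also run on simulated data with normal noise and a mouse effect. That simulation held no dp/+ shift with level of the kind described above, and its outcome is not reported here.

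Named genes are every member, every listed pathway gene past the threshold, otherwise the 3 with the smallest p, and the 5 genes most correlated with each aldolase. Members and lists were chosen with earlier results of these data known. RefSeq tables (GRCm38.p6) gave names, chromosomes and promoters. The labels call replicates separate mice. Alternatives are given in the closing section.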

Additional observations from a re-analysis of the deposited data

How the results depend on the processing

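The Aldoa slope across the brain stayed past the threshold in all 19 alternatives run, between 0.39 and 0.41 in the 18 that kept log2 copies. The Aldoa minus Aldoc slope did so in all 13, between 0.38 and 0.41 in the 12 on log2 copies. Aldoa alone was called in 18 of the 19, and array weights made it 2 members, with Pfkl. No result changed direction past the threshold. The 1 dp/+ call among the members became 0 on arrays centred on their medians, under cyclic loess and with brighter genes only, and 2 with array weights or over all region samples. Leaving out 1 mouse gave 0 to 1 members in df/+, 0 to 1 in dp/+, 4 to 7 of 9 between +/+ regions and 0 to 1 pathway genes. Instead of 0, a trended robust prior called 2 pathway genes (Aldoart1 and Aldoart2), array weights 3 (these and Hk2) and all region samples 1 (Aldoart1). With each region fitted alone the Aldoa slope in the bulb missed the threshold (adjusted p = 0.0831). Over all genes, 22 dosage calls became 1616 with array weights and 104 with the trended prior, and 371 dp/+ calls ranged from 11 without +/+ mouse 2 to 2222 with array weights.

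With the replicate number of the titles as a block, 0 members were called in df/+ and 0 in dp/+, while the Aldoa slope was 0.39 (limma, adjusted p = 0.00373). Over the 7 pairs of mice that share a number, the correlation of their deviations lay between −0.38 and 0.17, with both signs. Deviations were taken from genotype means, so the 2 df/+ mice mirror each other and these correlations are not independent. They cannot decide whether mice of the same number share a shift. In 1 of the fits with array weights the weights stopped short of convergence. The causes of these changes were not tested. With Hk1 by its other probe set, an alternative chosen after seeing the data, 9 of 9 members differed between regions. Only 2 df/+ mice limit what could be detected, and without 1 of them the other is assumed to vary like the other genotypes.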

Other observations

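Beyond the members, 37 of the 56 measured genes on the list of glucose metabolism differed between the 4 regions of the +/+ mice (limma F test, adjusted p under 0.05), where 58% of all genes did. Among 17 further glycolytic enzymes 12 differed: Hk2, Eno4, Ldha, Hkdc1, Pgam2, Ldhb, Eno3, Pgk1, Adpgk, Pgam5, Gapdhs and Bpgm. Hk2, the insulin-responsive hexokinase, read 7.33 ± 0.03 (SD, n = 3) in the cerebellum and 6.49 to 6.78 elsewhere (adjusted p = 4.98e-06). Eno4 read 7.61 ± 0.10 in the brain stem and 6.75 to 7.30 elsewhere (5.996e-06).

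Of 11 regulators 7 differed: Pdk4, Pdk1, Hif1a, Pdk2, Pfkfb3, Tigar and Pfkfb4. The 3 of the 4 pyruvate dehydrogenase kinases that differed were highest in different regions, Pdk4 in the brain stem at 9.75 ± 0.34 against 8.53 ± 0.27 in the bulb, Pdk1 in the cortex at 8.81 ± 0.21, and Pdk2 in the cerebellum at 11.72 ± 0.10. Pdk3 read 10.61 in the brain stem and 10.32 to 10.52 elsewhere (limma, adjusted p = 0.108). Hif1a, the hypoxia-responsive transcription factor, was also highest in the cerebellum, at 11.61 ± 0.14 against 10.99 to 11.09 elsewhere (adjusted p = 1.98e-05).

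Among 10 transporters 6 differed: Slc2a4, Slc16a7, Slc16a1, Bsg, Slc2a1 and Slc2a8. Slc2a4, the insulin-responsive glucose transporter, read 8.01 ± 0.01 in the cerebellum and 7.22 to 7.59 elsewhere. Slc16a7, a transporter that carries lactate into neurons, read 10.48 ± 0.10 in the cortex and 9.61 to 9.92 elsewhere. Of 16 genes of branches and reversal 11 differed: Gpd1, Tkt, Pck2, Gpd1l, Pgls, Taldo1, Pcx, Pdha1, G6pc3, Mpc1 and Pgd. Gpd1 was highest in the cerebellum, at 11.05 ± 0.01 against 10.10 to 10.37 elsewhere, and Tkt, the transketolase of the pentose phosphate pathway, in the brain stem at 9.70 ± 0.14. Aldoart1 was the only one of the 2 Aldoa copies called.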
